A study of Homo sapiens with 8 samples.

Results

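The D-type cyclins, the kinases they switch on and the inhibitors of those kinases were examined in RPMI-8402, a human line grown from a T-cell acute lymphoblastic leukaemia. The 10 genes were taken by symbol from the authors' count table of 61228 genes: the cyclins CCND1, CCND2 and CCND3, the kinases CDK4 and CDK6, and the inhibitors CDKN1B, CDKN2A, CDKN2B, CDKN2C and CDKN2D. All 10 were found, and 6 of them had enough counts to enter the test across 14243 genes. The series holds 4 clones with a knockout of the homeobox factor NKX2-1 (C12, C15, S04 and S36) and 4 clones labelled wild type for it (WT10, WT13, WT28 and WT30), all untreated and grown in the same medium. Per the design text, both kinds of clone came from cells in which NKX2-1 was targeted. The labels do not say how NKX2-1 was edited or what the letters C and S stand for, and each clone was sequenced as 1 library. The question put to these genes is whether transcripts of the machinery that opens the cell cycle differ between NKX2-1 knockout and wild-type clones.

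Cells leave G1, the phase before DNA is copied, when a D-type cyclin joins CDK4 or CDK6 and the pair phosphorylates the retinoblastoma protein RB, which then releases E2F factors to transcribe genes of DNA replication. INK4 proteins, encoded by CDKN2A (p16), CDKN2B (p15), CDKN2C (p18) and CDKN2D (p19), bind the kinases and keep the cyclin away. CDKN1B encodes p27, of the CIP and KIP family, which binds finished cyclin and kinase complexes. In mice the growth of immature thymocytes depends on cyclin D3, and loss of the CDKN2A and CDKN2B region on chromosome arm 9p is a frequent lesion of human T-cell leukaemia.

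The knockout libraries held 2730285 (C15) to 25423215 (C12) counts and the wild-type libraries 18453947 to 22916424. Levels are in CPM, that is counts divided by TMM-scaled library totals. Where a gene has 0 counts its level may still reach that of 3 counts, or 1.21 CPM in C15, 0.116 to 0.229 in the other knockout clones and 0.133 to 0.160 in wild-type clones. Such limits and all intervals on single libraries cover counting error only. NKX2-1 itself was at 72.0, 11.3, 83.6 and 33.4 CPM in knockout clones C12, C15, S04 and S36, against 56.9 ± 4.40 CPM in wild-type clones (SD, n = 4), so its mRNA level does not check the knockout labels, and counts per gene cannot show an edit. Of 13 T-cell leukaemia markers 12 averaged at least 1 CPM, as did 3 of 5 B-cell and 1 of 4 fibroblast markers. The T-cell markers summed to 1932 to 2321 CPM in knockout clones and 1950 to 2401 CPM in wild-type clones. The 4 erythroid markers had 0 counts in every clone. Single T-cell markers stood apart from the T-cell sum: CD5 was at 37.1 to 71.2 CPM in knockout and 84.8 to 116 CPM in wild-type clones, CD7 at 1.30 to 3.80 and 5.59 to 6.55 CPM, and TRBC1 at 18.6 to 266 and 162 to 228 CPM. PTCRA was at 0.229 to 15.7 CPM in knockout and 0.094 to 5.14 CPM in wild-type clones, and LMO1 at 67.6 to 136 and 125 to 154 CPM. Of the other lists, myeloid markers summed to at most 1.03 CPM and epithelial markers to at most 0.302 CPM in any clone, B-cell markers to 7.0 to 14.2 CPM in knockout and 9.85 to 16.9 CPM in wild-type clones, and fibroblast markers, nearly all COL1A1, to 6.19 to 13.9 CPM in knockout and 12.7 to 20.1 CPM in wild-type clones. The part of these T-cell, B-cell and fibroblast markers in the results that follow was not tested.

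No tested member had a level that set knockout clones apart from wild-type clones: 0 of the 6 tested members passed the threshold of 0.05 by edgeR, where 0.316% of all 14243 genes did (0.14% higher and 0.176% lower in knockout clones). None had an unadjusted edgeR p under 0.05, which 15.5% of all genes had, and DESeq2 and limma-voom called 0 of the 6, where they called 3.66% and 0.66% of all genes. Knockout and wild-type clones overlapped in each of the 6, while they did not overlap in 10.1% of all genes. The 95% intervals of the log2 fold changes leave room for changes of CCND3 and CDK6 of up to 0.43 and 0.51 on the log2 scale, and for larger ones of CDKN2D and CCND2, so these data do not show that the levels are equal.

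The members fell into 2 sets, in knockout and wild-type clones alike. CCND3, CDK6, CDKN1B, CDKN2C and CDKN2D were read in every clone with 19 or more counts. CCND1, CDK4, CDKN2A and CDKN2B had at most 8 counts in any clone, and CCND2 lay between the sets. Per kilobase of principal transcript, CCND3 averaged 321 ± 55.5 CPM in knockout and 302 ± 13.5 in wild-type clones (SD, n = 4 each), and CDK6 187 ± 44.9 and 173 ± 14.3. The 3 expressed inhibitors lay close together at 25.6 to 32.6 CPM per kilobase in knockout clones and 26.8 to 36 in wild-type clones. Their ranges over clones overlapped in both groups, but CDKN2D lay above CDKN2C in each of the 4 wild-type clones. The order of CCND3 over CDK6 depends on the length used: with all exons of each gene as length, CDK6 stood above CCND3 in each of the 8 clones, at 178 against 115 CPM per kilobase on average in knockout clones.

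**Figure D1:**
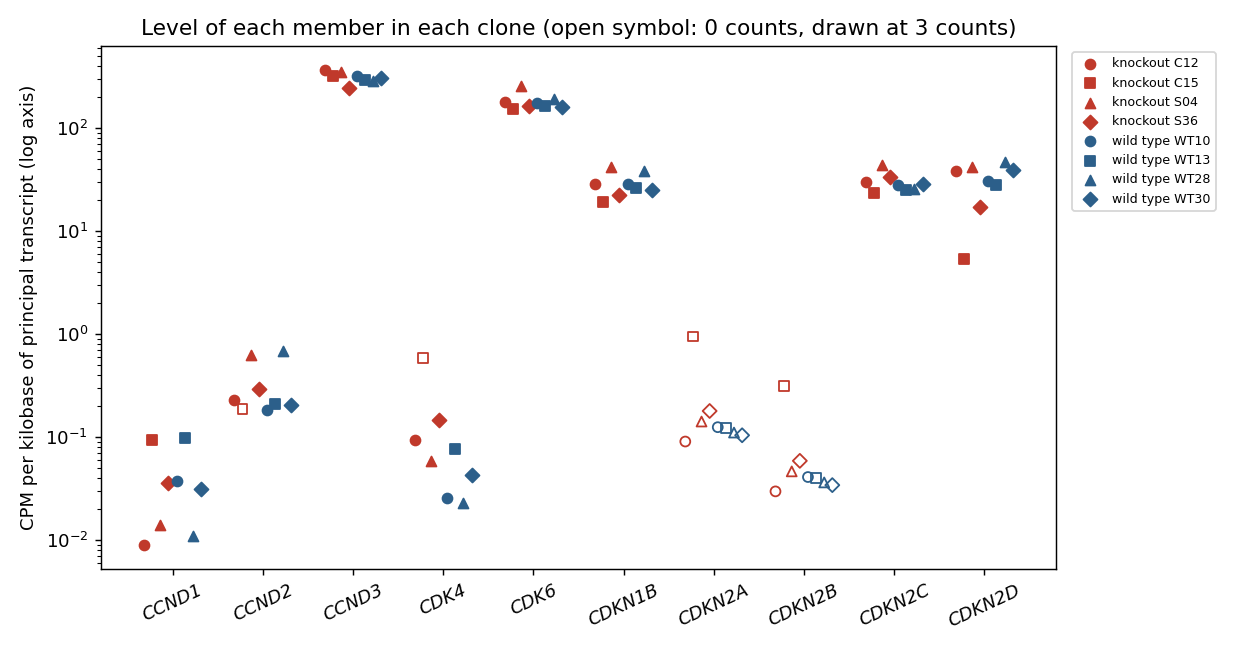
Level of the 10 members in each clone, in CPM per kilobase of principal transcript on a log axis, with knockout clones in red left of wild-type clones in blue and open symbols for 0 counts drawn at the limit of 3 counts. CCND3 and CDK6 stand highest, CDKN1B, CDKN2C and CDKN2D follow, and CDKN2A and CDKN2B have open symbols in every clone.

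CCND3, the D-type cyclin of the T lineage, was the only D-type cyclin read in depth. It lies on chromosome 6 from 41934933 to 42050357 (hg38 build, minus strand). Its level was 767, 667, 737 and 508 CPM in knockout clones C12, C15, S04 and S36, against 661, 613, 599 and 642 CPM in WT10, WT13, WT28 and WT30. C12, S04 and C15 lay above every wild-type clone and S36 below every one, so the groups overlapped. In bulk RNA, fewer cells with a transcript and less of it in each cell cannot be told apart. The log2 fold change of knockout over wild type was 0.09 (SE 0.15, 95% interval -0.25 to 0.43, edgeR quasi-likelihood adjusted p = 0.818), and an exact two-sided permutation test of log2 CPM over 70 assignments gave p = 0.629. Of the summed D-type cyclin level per kilobase CCND3 held 99.82% to 99.97% in knockout clones and 99.76% to 99.93% in wild-type clones.

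CCND2, which encodes a D-type cyclin common in lymphocytes, was close to the limit of these libraries. It had 38, 0, 67 and 25 counts in knockout clones C12, C15, S04 and S36, against 22, 26, 93 and 30 in WT10, WT13, WT28 and WT30. These are levels of 1.47 CPM in C12, 4.05 in S04 and 1.91 in S36, against 1.17, 1.36, 4.39 and 1.33 CPM in the wild-type clones. S04 and WT28 were the high clones of their groups, and their 95% Clopper-Pearson intervals (3.14 to 5.14 CPM in S04 and 3.54 to 5.38 in WT28) overlapped each other and did not reach those of the other 6 clones. At the wild-type mean level C15 would have held 5.11 counts, so its 0 is a weak reading. Knockout over wild type, CCND2 had a log2 fold change of 0.03 (SE 0.61, 95% interval -1.32 to 1.38, edgeR adjusted p = 0.989). Of the exon bases of CCND2 13.8% are shared with other genes in GENCODE release 29, on both strands. CCND1, the D-type cyclin of many epithelial cells, on chromosome 11 from 69641087 to 69654474, summed to 5 counts over knockout clones and 15 over wild-type clones, and no clone passed 0.420 CPM.

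CDK6, the D-cyclin kinase that prevails in lymphoid cells, was the kinase read in depth. It lies on chromosome 7 from 92604921 to 92836594 on the minus strand. Its level was 2080, 1794, 2938 and 1894 CPM in knockout clones C12, C15, S04 and S36, against 2028, 1902, 2238 and 1874 CPM in WT10, WT13, WT28 and WT30. S04 lay above every wild-type clone, C15 below every one, and the others within the wild-type range. CDK6 had a log2 fold change of 0.11 (SE 0.18, 95% interval -0.28 to 0.51, edgeR adjusted p = 0.805; exact permutation p = 0.771). Per kilobase of principal transcript, CCND3 stood to CDK6 as 2.06, 2.07, 1.40 and 1.49 in knockout clones C12, C15, S04 and S36, and as 1.75 ± 0.182 in wild-type clones, a ratio within each clone that library scaling does not touch. Its value in S04 and WT28 (1.49), the clones with the most CDK6, was low, as it was in S36, the clone with the least CCND3.

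CDK4, the sister kinase on chromosome 12 from 57747727 to 57756013, was listed with 5, 0, 2 and 4 counts in knockout clones C12, C15, S04 and S36, against 1, 3, 1 and 2 in WT10, WT13, WT28 and WT30. No clone passed 0.306 CPM, and CDK4 could not be tested. Of its exon bases 43.2% lie in TSPAN31, a gene on the other strand that held 10 to 73 counts a knockout clone and 39 to 75 a wild-type clone. Whether reads in shared exons were dropped or given to the other gene is not given in the sources used here, and the part of this overlap in the CDK4 value was not tested. Other genes that act in cell division were also low in this table, named after their values were seen. MCM2, a subunit of the replicative helicase, was at 0.039, 2.02, 2.54 and 4.05 CPM in knockout clones C12, C15, S04 and S36 (1 to 53 counts). In wild-type clones MCM2 was at 0.133 to 0.525 CPM (3 to 10 counts), and it had too few counts for the main test. MCM2 was called higher in knockout clones with no low-count filter (log2 fold change 2.73, edgeR adjusted p = 0.00492). The same held with S clones only (3.41, 0.00745) and without C12 (3.28, 0.0183), and in no other alternative of this comparison. CDK7, the kinase that activates other CDKs, had a level of at most 1.57 CPM in any clone. CCNE1, a cyclin that follows the D-type cyclins, had 0 to 4 counts in knockout clones and 2 to 14 in wild-type clones. The other E-type cyclin, CCNE2, was read in every clone, at 32.72 to 60.15 CPM in knockout and 32.01 to 42.65 CPM in wild-type clones. TYMS, which makes thymidylate for DNA, was at 0.617 to 2.60 CPM in knockout clones and 0.639 to 1.24 CPM in wild-type clones. Neither CDK7 nor CCNE1 shares exon bases with another gene in GENCODE release 29, while MCM2 shares 23.6% and TYMS 46.6%. The low value of CDK4 is therefore given as a listed count and not as a level of the kinase.

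The inhibitors began with a pair that was not read at all. CDKN2A, on chromosome 9 from 21967753 to 21995301, and CDKN2B, from 22002903 to 22009363, had 0 counts in all 4 knockout clones and all 4 wild-type clones. The limit of 3 counts allows at most 1.21 CPM in C15, 0.229 in the other knockout clones and 0.160 in wild-type clones. Their neighbours were read unevenly. KLHL9, encoding an adaptor of a ubiquitin ligase, on the side of the chromosome end, was at 58.9 to 114 CPM in knockout clones and 58.1 to 76.3 CPM in wild-type clones. MTAP, the methylthioadenosine salvage gene that lies between KLHL9 and CDKN2A, from 21802543 to 21937651, had 0 to 3 counts in clones of either group. CDKN2B-AS1, the long RNA that starts beside CDKN2A and runs across CDKN2B to 22121097, was read in every clone, at 7.79, 8.48, 13.9 and 6.88 CPM in knockout clones C12, C15, S04 and S36, against 8.89, 7.19, 7.22 and 7.06 CPM in WT10, WT13, WT28 and WT30. Counts per gene cannot tell which exons of CDKN2B-AS1 were read, nor a lost gene from a silent one. Of the exon bases of CDKN2A 7.88% are shared with CDKN2B-AS1, and of those of CDKN2B 0% with any gene. As for CDK4, how reads were counted is not given, and the part of counting in these low values was not tested.

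Beyond CDKN2B-AS1, DMRTA1 was at 0 to 1.57 CPM in knockout and 0.710 to 2.34 CPM in wild-type clones, and ELAVL2 had 0 counts throughout. The interferon genes IFNA1 and IFNE, between KLHL9 and MTAP, and IFNB1, on the far side of KLHL9, also had 0 counts in every clone. Towards the chromosome end MLLT3, a fusion partner of KMT2A in leukaemia, was at 12.2 to 23.2 CPM in knockout and 9.26 to 11.3 CPM in wild-type clones, FOCAD at 14.7 to 17.8 and 10.6 to 12.6 CPM, and HACD4 at 0.543 to 3.23 and 0.682 to 1.13 CPM. Of 6 tested genes of this list 0 passed the threshold by edgeR, DESeq2 or limma-voom. An unadjusted edgeR p under 0.05 was found for 2 of them, against 15.5% of all genes. The 2 were MLLT3 (log2 fold change 0.59) and FOCAD (0.48). Both lay higher in every knockout clone than in any wild-type clone, where the groups did not overlap in 10.1% of all genes. The chromosome 9 median was 0.21, 0.37, 0.40 and 0.36 in knockout clones C12, C15, S04 and S36 over 512 genes (log2 difference from the wild-type mean).

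CDKN2C, the p18 inhibitor, was read in depth on chromosome 1, from 50960745 to 50974633. Its level was 86.2, 67.4, 127 and 98.1 CPM in knockout clones C12, C15, S04 and S36, against 80.3, 72.8, 74.7 and 82.9 CPM in WT10, WT13, WT28 and WT30. S04, S36 and C12 lay above every wild-type clone and C15 below every one. For CDKN2C the log2 fold change came to 0.29 (SE 0.18, 95% interval -0.10 to 0.69, edgeR adjusted p = 0.466; exact permutation p = 0.314). Leaving out each clone moved it from 0.12 (without S04) to 0.41 (without C15, edgeR adjusted p = 0.171, with an unadjusted p under 0.05). With S-named knockout clones alone it was 0.52 (edgeR adjusted p = 0.0375), in a fit that called 14.5% of its 15219 genes, and with C-named clones alone it was -0.02 (edgeR adjusted p = 0.981). Genes within 2 Mb of CDKN2C had a median log2 difference from the wild-type mean of 0.03, -0.08, 0.23 and 0.00 in knockout clones C12, C15, S04 and S36, where CDKN2C itself was at 0.15, -0.20, 0.71 and 0.34. The part of the region in the CDKN2C values was not tested.

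CDKN2D, the p19 inhibitor, on chromosome 19 from 10566462 to 10569059, had the widest spread among knockout clones of the members read in depth. Its level was 54.5, 7.67, 59.1 and 24.2 CPM in knockout clones C12, C15, S04 and S36, against 43.5, 39.4, 66.0 and 55.8 CPM in WT10, WT13, WT28 and WT30. C12 and S04 lay within the wild-type range and C15 and S36 below it. C15 held 19 counts of CDKN2D (95% Clopper-Pearson interval 4.62 to 12 CPM), where the wild-type mean level would have given 127, and S36 held 316 where it would have given 670. The SD of log2 CPM over knockout clones was 1.36, larger than for 92.2% of tested genes, against 0.34 over wild-type clones. A wider spread among knockout clones was common in the table, with a median SD over all tested genes of 0.47 in knockout and 0.18 in wild-type clones. CDKN2D had a log2 fold change of -0.45 (SE 0.44, 95% interval -1.41 to 0.52, edgeR adjusted p = 0.672; exact permutation p = 0.314). C15 and S36 lay below every wild-type clone in CDKN1B, RB1, MYC, AKT1 and PIM1 too, and above every one in E2F1 and MYBL2. Of these genes all but CDKN1B were named after their values were seen. C15 and S36 also had the lowest NKX2-1 levels of the 8 clones. Genes within 2 Mb of CDKN2D had medians of -0.19, 0.03, -0.03 and -0.04 in knockout clones C12, C15, S04 and S36. The part of NKX2-1 or of the region in the CDKN2D values was not tested.

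CDKN1B, the p27 inhibitor, on chromosome 12 from 12715058 to 12722371, was at 75.2, 50.9, 112 and 59.0 CPM in knockout clones C12, C15, S04 and S36, against 76.8, 69.8, 101 and 67.1 CPM in WT10, WT13, WT28 and WT30. C15 and S36 lay below every wild-type clone and S04 above every one. For CDKN1B the log2 fold change came to -0.07 (SE 0.24, 95% interval -0.59 to 0.45, edgeR adjusted p = 0.921; exact permutation p = 0.629). Genes within 2 Mb had medians of 0.09, -0.32, 0.12 and -0.16 in knockout clones C12, C15, S04 and S36, where CDKN1B was at -0.05, -0.61, 0.53 and -0.40. The signs were opposite in C12 and shared in the other knockout clones, and the part of the region in the CDKN1B values was not tested.

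**Figure D2:**
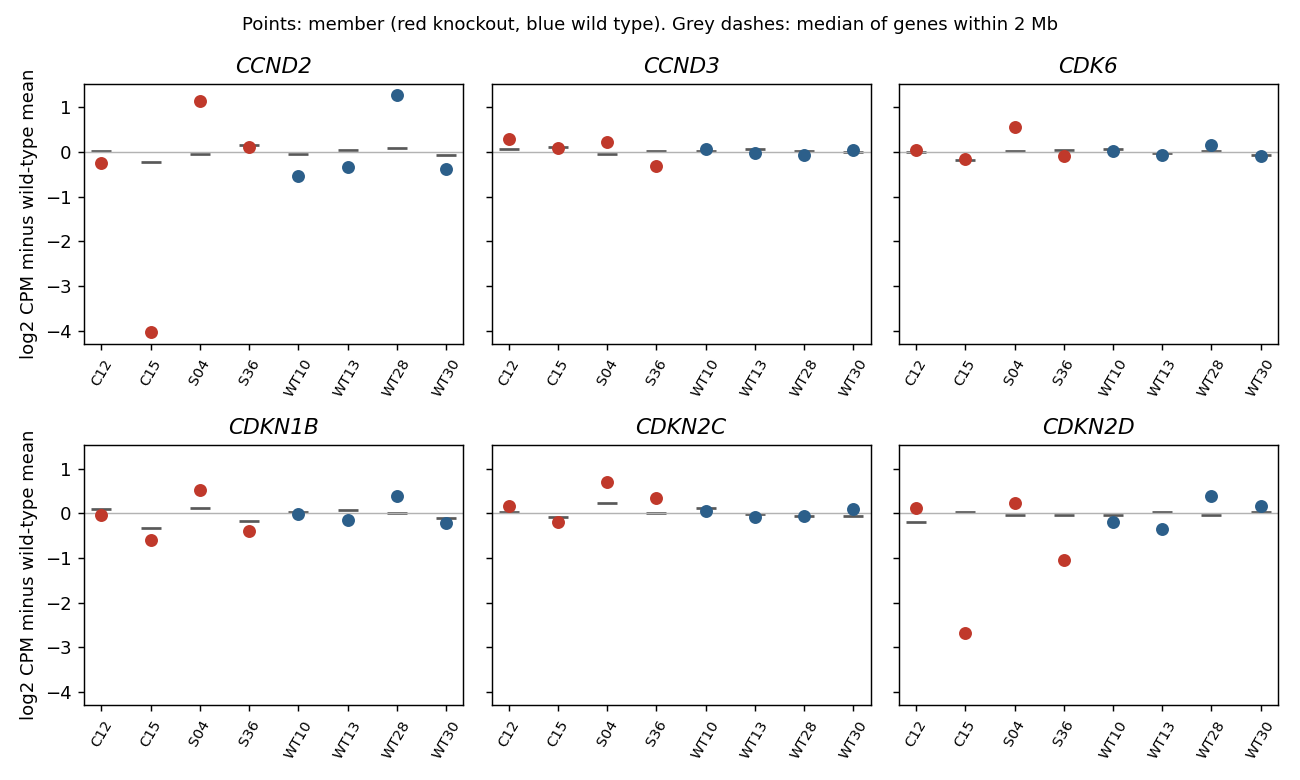
Difference in log2 CPM from the wild-type mean for the 6 tested members in each clone, knockout clones in red left of wild-type clones in blue, with grey dashes for the median of tested genes within 2 Mb. CCND3, CDK6 and CDKN2C stay within 0.71 of 0 in every clone, CDKN2D falls to -2.69 in C15 and -1.05 in S36, and the CCND2 point in C15 stands for 0 counts, so that its position depends on the prior count.

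Per kilobase, CDKN1B, CDKN2C and CDKN2D summed to 96.3, 47.8, 127 and 73.0 CPM in knockout clones C12, C15, S04 and S36, and to 92.3 ± 13.2 CPM in wild-type clones (SD, n = 4). Of the INK4 level CDKN2D made up 56.4%, 18.9%, 48.8% and 33.5% in knockout clones C12, C15, S04 and S36, and 52.5% to 64.3% in wild-type clones. CDK6 stood to the summed inhibitors as 1.86, 3.24, 1.99 and 2.24 in knockout clones C12, C15, S04 and S36, and as 1.89 ± 0.173 in wild-type clones. C15, the shallowest library, thus had the lowest summed inhibitor level for its CDK6 level, and its CDKN2D value rests on 19 counts.

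**Figure D3:**
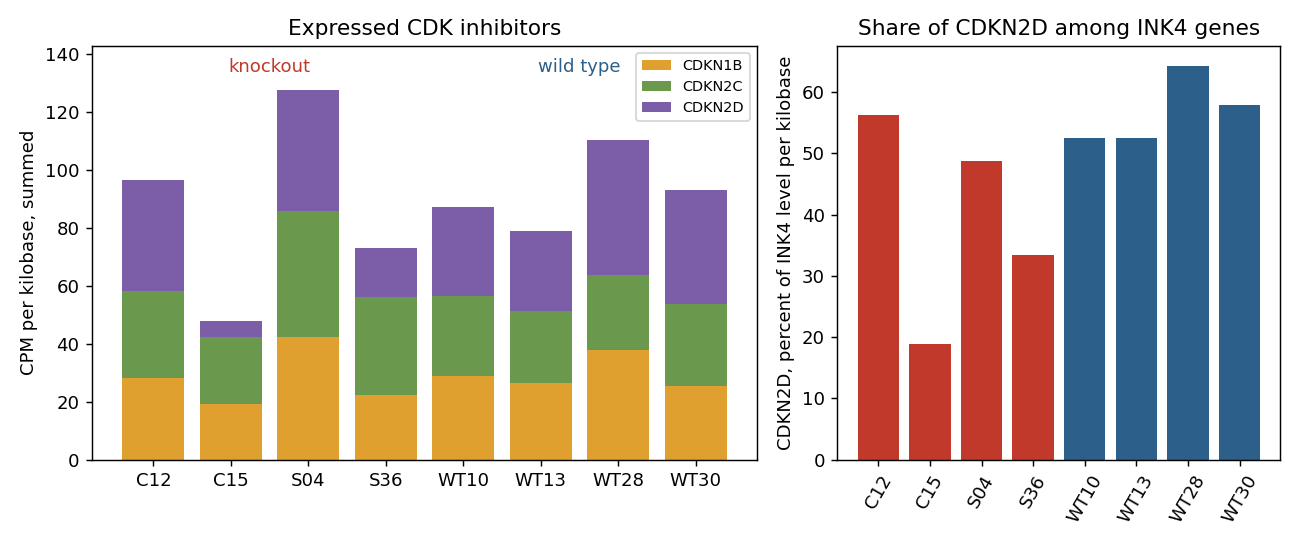
Left, stacked bars of CDKN1B, CDKN2C and CDKN2D in CPM per kilobase of principal transcript for each clone. Right, CDKN2D as a percent of the summed level of the INK4 genes, with knockout clones in red left of wild-type clones in blue; C15 (18.9%), S36 (33.5%) and S04 (48.8%) lie below the lowest wild-type clone (52.5%).

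Promoter sequences are shown for CDK6, CDKN2C and CDK4, because theirs were the windows with a match among 4 motifs searched after the values were known. RefSeq windows of 300 bases (250 before and 50 after the annotated start, build GRCh38.p14) were at hand for 8 of the 10 members. Searched on both strands were CACGTG, the E-box bound by MYC, TGTGGT, bound by RUNX factors, and CTCAAG, bound by NKX2-1. For E2F factors the letters were TTCCCGC, or TTGGCGC as a variant, or TTCGCGC as another, or else TTGCCGC. None of these motifs holds another, and CACGTG reads the same on both strands. Capitals mark CACGTG, the only motif found in the windows printed.
CDK6, chr7:92836524-92836823, minus strand: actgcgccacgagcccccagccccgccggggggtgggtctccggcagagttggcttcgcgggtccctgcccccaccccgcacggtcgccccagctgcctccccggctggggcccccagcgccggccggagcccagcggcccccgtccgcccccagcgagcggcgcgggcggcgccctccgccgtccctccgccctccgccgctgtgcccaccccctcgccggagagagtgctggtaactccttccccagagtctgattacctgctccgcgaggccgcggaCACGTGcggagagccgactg
CDKN2C, chr1:50960495-50960794, plus strand: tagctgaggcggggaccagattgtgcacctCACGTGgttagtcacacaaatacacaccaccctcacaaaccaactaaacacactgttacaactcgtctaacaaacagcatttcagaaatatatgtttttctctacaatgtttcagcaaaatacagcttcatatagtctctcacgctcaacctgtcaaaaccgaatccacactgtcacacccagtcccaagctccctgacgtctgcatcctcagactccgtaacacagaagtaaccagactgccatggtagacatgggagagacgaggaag
CDK4, chr12:57752261-57752560, minus strand: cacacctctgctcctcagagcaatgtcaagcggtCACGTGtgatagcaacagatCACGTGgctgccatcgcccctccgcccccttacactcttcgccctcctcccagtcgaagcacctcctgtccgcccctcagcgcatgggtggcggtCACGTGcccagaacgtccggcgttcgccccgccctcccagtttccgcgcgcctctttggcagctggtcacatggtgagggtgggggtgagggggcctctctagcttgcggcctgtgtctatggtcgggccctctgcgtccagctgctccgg
CACGTG occurred 3 times in the window of CDK4 and 1 time each in those of CDK6 and CDKN2C, at position 31 from the start of CDK6 and -220 from that of CDKN2C, and in 7.43% of 27303 windows of this length. The windows of CCND3, CDKN1B, CDKN2A, CDKN2B and CDKN2D held no match to any of the motifs, which 13.1% (E2F), 13.1% (RUNX) and 12.4% (NKX2-1) of all windows held. A single window of each gene was searched, for CDKN2A from 21995275 to 21995574 and for CCND3 from 42048639 to 42048938. Other starts of these genes were not searched. A match is only letters in a window, and its part in the level of any member was not tested.

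When C clones were set against S clones, with wild-type clones as the third group of the fit, 0 of the 6 members passed by edgeR, against 0.358% of all genes. CDKN2C was the 1 member with an unadjusted p under 0.05, which 17.1% of all genes had, and DESeq2 and limma-voom called 0, against 4.57% and 0.625% of all genes. CDKN2C averaged 76.8 CPM in C clones and 112 CPM in S clones, a log2 difference of C minus S of -0.54 (SE 0.19, 95% interval -0.96 to -0.12, edgeR adjusted p = 0.192). The unadjusted edgeR p of CDKN2C was above 0.05 without C15 (log2 difference -0.39) or without S04 (-0.34), and the difference was -0.98 in thinned libraries (edgeR adjusted p = 0.352). CCND2 averaged 0.733 CPM in C clones and 2.98 CPM in S clones (edgeR adjusted p = 0.443 for a log2 difference of -1.42 with SE 0.87), with 0 counts in C15, so that no difference is given without C12. CDK6 averaged 1937 and 2416 CPM (log2 difference -0.32, SE 0.21), CCND3 717 and 622 CPM (0.21, SE 0.19), and CDKN1B 63.0 and 85.6 CPM (-0.42, SE 0.32). CDKN2D differed more between the clones of each letter than between letters, at 54.5 and 7.67 CPM in the C clones and 59.1 and 24.2 CPM in the S clones.

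The rest of the pathway was taken from 7 lists of 110 genes in the table, of which 105 were tested. In knockout clones 0 rose and 1 fell by edgeR. Of the 105 genes 61 lay above and 44 below 0, where 52.2% of all genes lay above 0. The median log2 fold change was 0.05, against 0.02 for all genes. An unadjusted edgeR p under 0.05 was found for 19.0% of the 105 against 15.5% of all genes. The groups did not overlap in 14.3% against 10.1%. The gene that fell was CBX7, a Polycomb subunit known to silence CDKN2A, at 1.89, 0.807, 1.33 and 1.45 CPM in knockout clones C12, C15, S04 and S36, against 4.79, 6.66, 5.52 and 5.24 CPM in WT10, WT13, WT28 and WT30. These values rest on 49, 2, 22 and 19 counts in the knockout clones and 90, 127, 117 and 118 in the wild-type clones, so the C15 value is a weak reading. The log2 fold change of CBX7 was -1.90 (SE 0.28, edgeR adjusted p = 0.0326). CDKN2A was not tested, and with 0 counts in knockout and wild-type clones alike it gives no reading beside CBX7. The adjusted p of CBX7 rose above the threshold without S04 (0.0754), S36 (0.0624), WT10 (0.0945), WT13 (0.116), WT28 (0.0920) or WT30 (0.138), with C clones only (0.132) and in thinned libraries (0.775), and over all alternatives it ran from 1.49e-06 to 0.775. Its log2 fold change was -2.10 to -1.82 over the clones left out and -1.75 with C clones only, but -1.18 in thinned libraries. Of its exon bases 21.6% are shared with other genes, mostly on the other strand. The upstream regulators to which CBX7 belongs had 11 of 23 tested genes above 0 (median -0.04), with 5 at an unadjusted edgeR p under 0.05, and DESeq2 called 2 of them lower (CBX7 and IKZF1, a lymphoid factor) and limma-voom 1 (CBX7). Over all pathway genes DESeq2 called 5 of 105, beside 3.66% of all genes, and limma-voom 2, beside 0.66%.

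RB pocket proteins and E2F factors, the substrates and outputs of the kinases, had 6 of 12 tested members above 0 (median log2 fold change 0.09). By edgeR 0 passed and 4 had an unadjusted p under 0.05, against 0.316% and 15.5% of all genes. By DESeq2 1 passed and by limma-voom 0, against 3.66% and 0.66% of all genes. Here and for the lists below, the share of all genes above 0 was 52.2%. The repressor E2F6 averaged 38.6 CPM in knockout and 61.2 CPM in wild-type clones (log2 fold change -0.67, edgeR adjusted p = 0.118, called lower by DESeq2), beside a chromosome 2 median of -0.24 to -0.43 in knockout clones. E2F7, another repressor, was at 0.76 (edgeR adjusted p = 0.165) and TFDP2, a dimer partner of E2F factors, at -0.37 (0.258). RB1 itself was at 92.4, 39.6, 157 and 68.6 CPM in knockout clones C12, C15, S04 and S36, against 89.1 to 116 CPM in wild-type clones, so C15 and S36 lay below every wild-type clone and S04 above every one. E2F1, an activator, was at 86.6, 204, 68.0 and 113 CPM in the same knockout clones and 93.5 to 107 CPM in wild-type clones. There C15 and S36 lay above every wild-type clone, and C12 and S04 below every one. E2F1 lies on chromosome 20, whose median was -0.35, 0.04, -0.45 and -0.15 in knockout clones C12, C15, S04 and S36. The part of the chromosome in the E2F1 values was not tested.

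E2F target genes of the entry into S phase had 18 of 28 tested members above 0 and a median of 0.12. By edgeR, DESeq2 and limma-voom 0 passed, with 3 at an unadjusted edgeR p under 0.05, against 15.5% of all genes. The 3 were GINS1 (log2 fold change 0.54), CDC6 (0.36) and MCM6 (-0.33), which help to load or run the replicative helicase (edgeR adjusted p = 0.194, 0.247 and 0.263). GINS1 lies on chromosome 20, whose median was -0.35, 0.04, -0.45 and -0.15 in knockout clones C12, C15, S04 and S36, and MCM6 lies on chromosome 2, where the medians of knockout clones were below 0. Against the wild-type mean the median of this list was -0.04, 0.21, -0.03 and 0.24 in knockout clones C12, C15, S04 and S36, and -0.04 to 0.05 in wild-type clones.

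CDK2, which takes over from the D-type cyclins, was listed with CDK1, the CDK-activating kinase (CDK7, CCNH and MNAT1), CDC37, WEE1, CDC25B and CDC25C. Of these 9 genes 7 lay above 0 (median 0.23). The median is the value of CDK7 (SE 0.54), which had 0 counts in C15. By edgeR, DESeq2 and limma-voom 0 passed, with 2 at an unadjusted edgeR p under 0.05, against 15.5% of all genes. MNAT1, a subunit of the CDK-activating kinase, was at 0.47, WEE1, a kinase that restrains CDKs, at 0.46, and CDK2 at 0.35 (edgeR adjusted p = 0.215, 0.239 and 0.352). CDK2 was at 201, 269, 193 and 317 CPM in knockout clones C12, C15, S04 and S36, against 185 to 198 CPM in wild-type clones.

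Genes for the turnover of D-type cyclins and p27 had 12 of 18 tested members above 0 (median 0.04). By edgeR 0 passed, with 4 at an unadjusted p under 0.05, against 15.5% of all genes. DESeq2 and limma-voom each called 1, CUL1, against 3.66% and 0.66% of all genes. CUL1, the scaffold of the SCF ubiquitin ligase that marks p27, was at 45.5, 45.2, 44.7 and 48.9 CPM in knockout clones C12, C15, S04 and S36, against 24.5, 30.9, 16.8 and 23.1 CPM in WT10, WT13, WT28 and WT30. The groups did not overlap for CUL1, as in 10.1% of all genes. The log2 fold change of CUL1 was 0.95 (SE 0.18, edgeR adjusted p = 0.0692), and 10.9% of its exon bases are shared with a gene on the other strand. UBAC1, an adaptor of another ligase of p27, was at 0.57 (edgeR adjusted p = 0.157) on chromosome 9, where the medians of knockout clones were above 0, and DDB1, a ligase subunit, at -0.48 (0.202). SKP2, the receptor of p27 in the SCF ligase, was at 0.05 (edgeR adjusted p = 0.933).

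The other CIP and KIP genes were scarce. CDKN1A, encoding p21, was at 0.153 to 1.51 CPM in knockout clones and 0.377 to 1.06 CPM in wild-type clones (log2 fold change 0.46, SE 0.59, edgeR adjusted p = 0.752), and CDKN1C, encoding p57, had 0 counts throughout. In a comparison list of mitosis genes 7 of 15 lay above 0 (median -0.02). By edgeR 0 passed, with 2 at an unadjusted p under 0.05, against 15.5% of all genes. By limma-voom 0 passed and by DESeq2 1, KIF11, against 0.66% and 3.66% of all genes. KIF11, a spindle motor, was at 0.65 (edgeR adjusted p = 0.123) on chromosome 10, whose median was 0.30 in S36 and -0.11 to 0.04 in the other knockout clones, BUB1B, a spindle checkpoint kinase, was at 0.39 (0.237) and CENPE, a kinetochore motor, at -0.39 (0.324). Of 21 tested genes next to members elsewhere in the genome 0 passed by edgeR, DESeq2 or limma-voom, with 0 at an unadjusted edgeR p under 0.05. The smallest p there belonged to TSPAN31, APOLD1 and FAF1, whose log2 fold changes were 0.57, 0.34 and -0.36 (edgeR adjusted p = 0.391, 0.391 and 0.402).

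**Figure D4:**
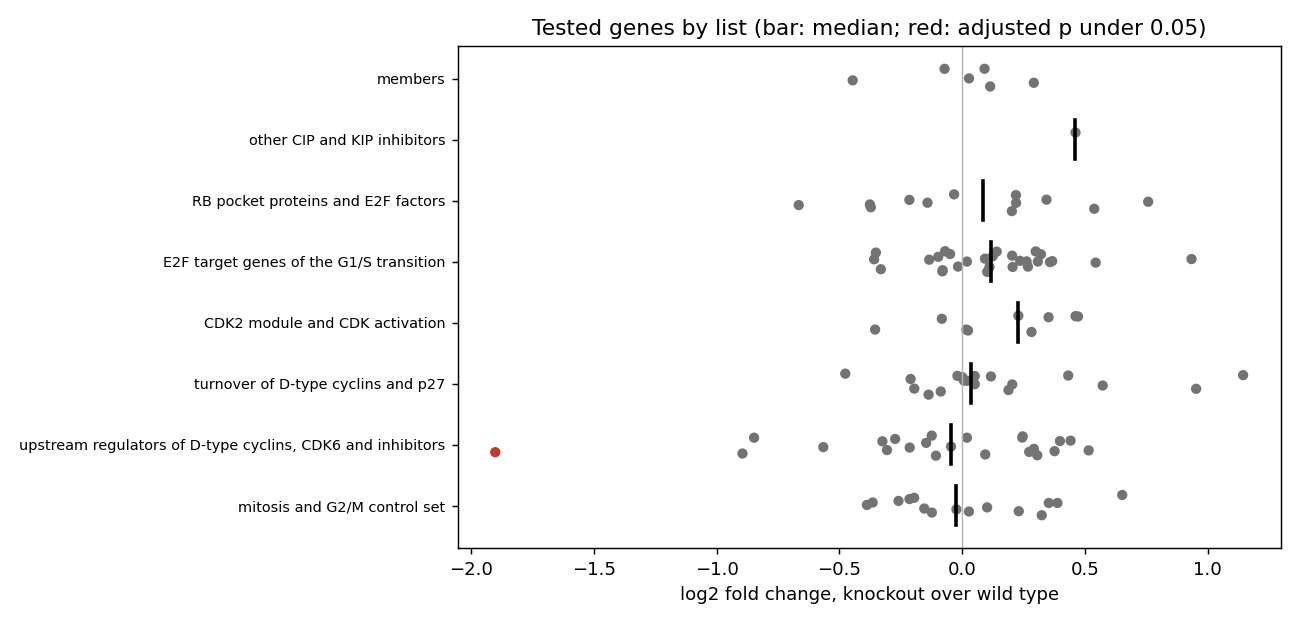
Log2 fold change of knockout over wild type for the 6 tested members and for tested genes of each pathway list, 1 point a gene, with a bar at the list's median and red for an edgeR adjusted p under 0.05. The red point is CBX7 at -1.90, and the list medians lie between -0.04 and 0.46 (the single gene CDKN1A).

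The profiles of the 2 members with the widest range over the 8 clones were set against those of all other tested genes, as root mean square difference of log2 CPM after each gene's own wild-type mean was taken off. Nearest to CDKN2D were ENSG00000275202 (0.204), RPL37P23 (0.218) and TBC1D22A-DT (0.231), each with its lowest value in C15 and the next in S36. In C15 they were at 0.807, 0 and 1.21 CPM, no higher than the level of 3 counts there (1.21 CPM). RPL37P23 did not pass 1.13 CPM in any clone, so its 0 in C15 does not show a low level. TBC1D22A-DT was at 7.60, 1.21, 6.40 and 3.21 CPM in knockout clones C12, C15, S04 and S36, against 6.49 to 7.93 CPM in wild-type clones. Nearest to CCND2 were ADGRE5 (0.397), ENSG00000264659 (0.455) and LSM14A (0.474), each with 0 counts in C15. At such counts in C15 the differences from both members depend in part on the prior count. With 8 clones and 14243 genes such nearness is a description only.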

How the data were processed

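The authors deposited raw counts per gene symbol for 8 clones in 1 table, used as they stand. Total RNA was column-purified and libraries followed Illumina protocols, per the labels' protocols. The submitters' processing notes name hg38 and the tools TopHat2, Subread, SAMtools and FastQC. What annotation and strand setting were used is not given in the sources used here, so reads of genes that overlap cannot be told apart. Positions, lengths and overlaps were read from GENCODE release 29, also hg38 (56995 symbols matched, all 10 members).

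Genes passing filterByExpr (14243) were scaled by TMM and tested, two-sided, by quasi-likelihood in edgeR 4.0.16 under R 4.3.3, Benjamini-Hochberg over all tested genes, threshold 0.05. Log2 CPM used a prior count of 2. DESeq2 1.42.0, limma-voom (limma 3.58.1), other factors and filters, thinning to 2730285 counts, leaving out each clone, and C or S clones alone were alternatives. The test was tried on simulated data first. Named were all members, list genes past the threshold or otherwise the 3 with the smallest p, all listed 9p neighbours, and the 3 profiles nearest to 2 members; RB1, E2F1, SKP2, MCM2, TYMS, CDK7 and CCNE1 were added after their values were seen. Members and lists were chosen with earlier results of these data known. The labels give clones but no cultures or dates, so p-values measure only how these clones vary, which may be technical in part. Chi-square per degree of freedom was at least 13.8 for any pair of clones within a group, and every library was kept.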

Additional observations from a re-analysis of the deposited data

Results flagged for a closer look

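CCND2 in WT28, at 2.17 on the log2 CPM scale, lay apart from the other 3 wild-type clones by a gap large against their whole range. It was the 1 such value among 12 groups of 4 clones (6 members in knockout and wild-type clones), and chance alone marks about 5% of such groups. It rests on 93 counts, against 22, 26 and 30 in WT10, WT13 and WT30.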

How the results depend on the processing

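Among the members the count past the threshold stayed at 0 in 16 of 17 alternatives and was 1 with S clones only (CDKN2C); between C and S clones it was 0 in all 15. The count of pathway genes past the threshold, 1 as reported, was 4 with no low-count filter, 5 by DESeq2, 2 by limma-voom, 0 in thinned libraries, 0 with C clones only and 26 with S clones only, and from 0 to 6 when each clone was left out (6 without C12, 1 without C15, and 0 without any other clone). Signs of small member changes turned. For CCND2 the log2 fold change was -0.0225 with no filter, -0.0408 by DESeq2, -0.0585 by limma-voom and -0.85 with C clones only, and -0.56 (without S04) to 0.69 (without WT28) over the clones left out. With C clones only CDK6 was at -0.071 and CDKN2C at -0.0168, and with S clones only CCND3 was at -0.0273 and CDKN1B at 0.11. Leaving out each clone moved CDK6 from -0.0652 (without S04) to 0.19 and CDKN1B from -0.34 (without S04) to 0.0643 (without WT28), above 0 also without C15 (0.0564) or S36 (0.028). For C minus S it moved CCND3 from -0.0371 (without S36) to 0.50, CDK6 from -0.60 to 0.0313 and CDKN1B from -0.80 to 0.12 (both without S04), and CDKN2D from -2.44 (without C12) to 0.53 (without S04), above 0 also without C15 (0.38). CDKN2D stayed below 0 in all 17 alternatives for knockout against wild type, from -0.74 (without S04) to -0.16 (without C15). Where values changed, the cause was not tested. The level of CCND3 per kilobase fell to 115 CPM when all exons set its length, and the medians around members moved by less than the spread of knockout clones with a window of 5 Mb. All genes called numbered 45 as reported, 581 with no filter, 521 by DESeq2, 94 by limma-voom, 0 in thinned libraries, 6 with C clones only and 2211 with S clones only. Without C12 they numbered 456, without C15 114, without S04 7, without S36 20, and without WT10, WT13, WT28 or WT30 3, 3, 5 and 3. Between C and S clones they numbered 51, but 14 with RLE factors or with a filter at 1 CPM, 20 with upper-quartile factors, 762 with no filter, 651 by DESeq2, 89 by limma-voom and 0 in thinned libraries; without C12, C15, S04 or S36 749, 32, 148 and 198, and 0 whichever 1 of the wild-type clones was left out. Depth limits C15, where a count of 0 allows 1.21 CPM. No paired analysis was possible because the clones of the groups share no replicate number in the labels.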

Other observations

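Signalling genes that act on these cyclins and inhibitors had values in single clones that the group test does not show. MYC, a driver of cell-cycle entry, was at 18.5, 4.84, 17.8 and 6.95 CPM in knockout clones C12, C15, S04 and S36, against 11 to 16.4 CPM in wild-type clones. AKT1, a kinase that acts on p27, was at 9.26, 0.807, 12.4 and 2.22 CPM in knockout clones C12, C15, S04 and S36, against 9.59 to 15.8 CPM in wild-type clones. PIM1, a kinase that also acts on p27, was at 26.7, 4.44, 58.2 and 10.5 CPM in knockout clones C12, C15, S04 and S36, against 19.3 to 35 CPM in wild-type clones. C15 and S36 were below every wild-type clone in these 3 genes, while MYBL2, an E2F target, was at 262, 633, 346 and 565 CPM in knockout clones C12, C15, S04 and S36 and 305 to 376 CPM in wild-type clones. MYBL2 lies on chromosome 20, whose median was -0.35, 0.04, -0.45 and -0.15 in the same knockout clones, and the part of the chromosome was not tested. The 4 genes were named after their values were seen, and the edgeR adjusted p of MYC, AKT1, PIM1 and MYBL2 for knockout against wild type were 0.885, 0.448, 0.981 and 0.515.

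Lineage factors among the upstream regulators differed in direction. TCF7, a T-lineage factor, was at 871 to 996 CPM in knockout and 934 to 1059 CPM in wild-type clones, and MYB, a haematopoietic factor, at 736 to 945 and 644 to 724 CPM (log2 fold change 0.31, edgeR adjusted p = 0.311), higher in each knockout clone than in any wild-type clone. GATA3, a T-lineage factor, was at 94.7 to 125 CPM in knockout and 128 to 138 CPM in wild-type clones (log2 fold change -0.32, edgeR adjusted p = 0.284), and IKZF1 at 97.3 to 153 and 183 to 201 CPM (-0.57, edgeR adjusted p = 0.152), both lower in each knockout clone than in any wild-type clone. These 4 were named after their values were seen, and none passed the threshold by edgeR. Knockout and wild-type clones did not overlap in 14.3% of the tested pathway genes and in 10.1% of all genes.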
